A study of Mus musculus with 2 samples.

Results

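The mouse genes described here are autosomal protein-coding genes at which the deposited peak lists of the embryonic heart show no open chromatin, neither in the gene nor near it. Open chromatin was profiled by ATAC-seq, in which the Tn5 transposase cuts and tags accessible DNA, in whole hearts of wildtype FVB embryos at E11.5. A single group was studied, with 2 replicates of about 50000 cells each, each replicate made from a pair of hearts of embryos with 49 to 51 somites, so no contrast between conditions, genotypes or tissues exists in these data. Reads were 50 bases long and were mapped to mm10, which is built from C57BL/6J mice and not from FVB. The genes were chosen by the absence of peaks: a gene was kept when its annotated body (GENCODE M21) plus 10 kb on each side overlapped no peak of either replicate by 1 bp. By this rule 3424 of 20807 autosomal protein-coding genes had no peak, which is 16.5% of them.

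Peaks in each list carried running numbers in genome order, and some numbers were skipped: 1726 of 119753 in replicate 1 (1.44%) and 1803 of 116586 in replicate 2 (1.55%). What lay at those positions was not analysed here. Of the 3424 genes, 775 had a window that reached into an interval where a number was skipped, and these are called undecided below. They included genes that every cell uses, such as replication-dependent histones, and 160 of them were on chromosome 14. The other 2649 genes, 12.7% of all genes tested, had neither a listed peak nor a skipped number in their window and are called peak-free genes below. All descriptions that follow use the 2649 peak-free genes, with the undecided genes counted separately. Since peaks chose these genes, their counts and distances are descriptions and were not tested.

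Mammalian sensory and secreted protein families grew by repeated duplication of neighbouring genes, so their members sit side by side in long clusters with few other genes between them. An olfactory sensory neuron expresses a single olfactory receptor gene from a large repertoire, while other neurons and other tissues keep these genes in compact, silent chromatin. Vomeronasal receptors detect pheromones and kairomones, major urinary proteins carry such signals in urine, and defensins, kallikreins and small proline-rich proteins belong to mucosal and skin barriers. None of these products is known as a building block of the embryonic heart muscle. The promoters of such tissue-restricted genes are typically poor in CpG dinucleotides, whereas most broadly used genes and many developmental regulators start within CpG islands.

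The promoter sequences of the genes farthest from any peak illustrate this composition. They are printed below for the farthest peak-free gene of the 6 families that led the question, from 250 bases before to 50 bases after the annotated gene start, read 5′ to 3′ on the gene's strand from GRCm38. CpG dinucleotides are in capitals. Olfr393 (chr11:73851405-73851704, minus strand) is an olfactory receptor gene, Vmn1r138 (chr7:22028848-22029147, minus strand) and Vmn2r40 (chr7:8931386-8931685, minus strand) are vomeronasal receptor genes, Defb3 (chr8:19293110-19293409, plus strand) encodes a beta-defensin, Skint6 (chr4:113286924-113287223, minus strand) belongs to a family that shapes skin T cells, and Klk1b21 (chr7:44102078-44102377, plus strand) encodes a tissue kallikrein.
Olfr393: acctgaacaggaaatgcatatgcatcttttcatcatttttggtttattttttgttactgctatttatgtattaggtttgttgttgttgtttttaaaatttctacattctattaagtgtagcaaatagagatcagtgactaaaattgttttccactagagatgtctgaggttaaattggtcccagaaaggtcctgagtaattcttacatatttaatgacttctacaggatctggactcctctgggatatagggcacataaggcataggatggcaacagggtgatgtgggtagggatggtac
Vmn1r138: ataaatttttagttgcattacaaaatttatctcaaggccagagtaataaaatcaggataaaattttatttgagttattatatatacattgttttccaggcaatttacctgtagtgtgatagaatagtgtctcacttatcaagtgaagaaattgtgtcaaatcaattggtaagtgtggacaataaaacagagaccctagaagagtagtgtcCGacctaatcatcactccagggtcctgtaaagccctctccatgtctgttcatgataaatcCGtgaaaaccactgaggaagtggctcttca
Vmn2r40: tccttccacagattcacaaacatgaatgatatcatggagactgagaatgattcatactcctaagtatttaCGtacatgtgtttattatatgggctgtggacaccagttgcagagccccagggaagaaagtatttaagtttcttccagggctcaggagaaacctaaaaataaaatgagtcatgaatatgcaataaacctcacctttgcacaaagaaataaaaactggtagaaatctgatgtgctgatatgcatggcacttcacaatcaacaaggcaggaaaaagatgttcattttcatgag
Defb3: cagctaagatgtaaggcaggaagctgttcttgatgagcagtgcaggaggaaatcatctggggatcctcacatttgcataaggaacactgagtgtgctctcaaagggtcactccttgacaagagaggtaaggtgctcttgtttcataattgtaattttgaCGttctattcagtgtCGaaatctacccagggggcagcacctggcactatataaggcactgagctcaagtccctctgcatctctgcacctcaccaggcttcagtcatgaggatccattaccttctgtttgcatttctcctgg
Skint6: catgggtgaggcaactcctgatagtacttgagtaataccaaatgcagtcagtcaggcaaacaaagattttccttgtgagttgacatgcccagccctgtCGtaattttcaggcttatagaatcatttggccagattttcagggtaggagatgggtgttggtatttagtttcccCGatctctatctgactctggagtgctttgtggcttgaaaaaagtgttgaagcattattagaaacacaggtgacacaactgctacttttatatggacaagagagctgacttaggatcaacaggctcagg
Klk1b21: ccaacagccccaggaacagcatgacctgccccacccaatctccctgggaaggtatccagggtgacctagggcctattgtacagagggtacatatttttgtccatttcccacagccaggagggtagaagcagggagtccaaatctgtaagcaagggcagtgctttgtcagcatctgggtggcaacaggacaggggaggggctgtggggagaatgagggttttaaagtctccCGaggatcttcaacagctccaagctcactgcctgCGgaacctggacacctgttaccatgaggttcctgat
These 6 promoters held between 0 and 2 CpG dinucleotides each. The share of bases that are G or C ran from 35.3% in Vmn1r138 to 54.7% in Klk1b21.

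A further 4 promoters are shown for contrast and were picked after their values had been seen. Olfr575 (chr7:102958726-102959025, minus strand) is an olfactory receptor gene with a peak over its start, and Myh6 (chr14:54966878-54967177, minus strand) encodes the alpha cardiac myosin heavy chain of heart muscle. Neurog1 (chr13:56252114-56252413, minus strand) directs the formation of sensory neurons, and T (chr17:8434173-8434472, plus strand), also called brachyury, acts in mesoderm and notochord. Both of the latter were peak-free.
Olfr575: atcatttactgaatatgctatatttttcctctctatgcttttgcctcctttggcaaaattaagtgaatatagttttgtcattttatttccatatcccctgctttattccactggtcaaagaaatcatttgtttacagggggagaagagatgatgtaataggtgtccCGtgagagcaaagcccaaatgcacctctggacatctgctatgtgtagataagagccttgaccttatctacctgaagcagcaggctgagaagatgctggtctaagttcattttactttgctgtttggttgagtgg
Myh6: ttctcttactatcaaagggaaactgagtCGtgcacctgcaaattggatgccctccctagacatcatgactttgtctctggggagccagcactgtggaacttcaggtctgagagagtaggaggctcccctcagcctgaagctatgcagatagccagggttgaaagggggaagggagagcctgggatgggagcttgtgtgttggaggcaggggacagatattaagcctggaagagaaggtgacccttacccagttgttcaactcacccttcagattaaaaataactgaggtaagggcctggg
Neurog1: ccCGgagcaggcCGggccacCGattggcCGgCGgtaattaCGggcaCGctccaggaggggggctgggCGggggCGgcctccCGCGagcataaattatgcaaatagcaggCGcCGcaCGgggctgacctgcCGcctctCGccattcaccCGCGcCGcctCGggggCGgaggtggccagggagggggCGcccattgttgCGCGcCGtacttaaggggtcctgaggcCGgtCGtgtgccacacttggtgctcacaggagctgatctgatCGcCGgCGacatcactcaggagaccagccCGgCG
T: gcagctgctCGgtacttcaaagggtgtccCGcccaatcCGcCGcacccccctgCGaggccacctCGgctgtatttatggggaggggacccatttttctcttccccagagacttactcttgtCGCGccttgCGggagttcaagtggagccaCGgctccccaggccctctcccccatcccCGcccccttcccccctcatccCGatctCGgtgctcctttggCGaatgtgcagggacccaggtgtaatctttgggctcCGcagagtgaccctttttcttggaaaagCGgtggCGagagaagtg
Olfr575 and Myh6 held 1 CpG each, and yet a peak lay within 1 kb of the start, with a fold enrichment (reads at the peak's summit over the background level of the same list) of 19 and 22.1 in replicates 1 and 2 for Olfr575 and of 13.9 and 12.8 for Myh6. Neurog1 held 32 CpG and T held 17 with no peak within 28.2 kb and 14.3 kb of their bodies. These examples show peaks at CpG-poor starts and peak-free genes with CpG-rich starts.

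Replicate 1 held 118027 peaks and replicate 2 held 114783, with median fold enrichments of 5.70 and 5.03. At least 1 bp was shared with the other list by 81.0% of the peaks of replicate 1 and 82.8% of those of replicate 2. All 11 heart muscle genes examined (among them Myh6, Myh7, Tnnt2, Nkx2-5 and Tbx5) had a peak in their window, as had 83.5% of all genes, and so did all 5 endothelial and endocardial genes, all 3 epicardial genes and all 3 autosomal red blood cell genes. These counts are too close to that share to check the labelled tissue. Of the marker genes of other tissues, all 4 autosomal olfactory neuron genes and both vomeronasal neuron genes had a peak, as did the 3 liver genes and the 3 skin genes, and of the 4 testis genes only Tnp1, a nuclear protein of maturing sperm, was peak-free. A window of this width also reaches neighbouring genes, and in whole hearts a site open in few cells cannot be told apart from a site weakly open in many.

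The 3 large chemoreceptor families made up 40.8% of the peak-free genes, with 1080 genes. Among the olfactory receptor genes (Olfr), 845 of 1128 were peak-free (74.9%), 82 were undecided and 201 had a peak. Vomeronasal type 1 receptors (Vmn1r) had 148 of 208 peak-free genes (71.2%), with 37 undecided and 23 with a peak. Vomeronasal type 2 receptors (Vmn2r) had 87 of 121 (71.9%), with 16 undecided and 18 with a peak. The smaller chemosensory families varied more widely: 25 of 35 bitter taste receptor genes (Tas2r) were peak-free, 14 of 20 Mas-related receptor genes (Mrgpr), which act in itch and pain neurons, 6 of 7 formyl peptide receptor genes (Fpr), and 7 of 15 trace amine-associated receptor genes (Taar).

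Families of secreted signals and host defence formed the next group. Every member was peak-free among the 22 alpha-defensins (Defa), which Paneth cells of the gut secrete, the 11 Skint genes and the 11 Klra genes, the Ly49 receptors of natural killer cells. No other family of 5 or more genes on the list had all of its genes peak-free. Near most Defa starts little of the sequence is unique, as given below, so short reads are hard to place there. The part this played in their lack of peaks was not tested. Of the major urinary protein genes (Mup), 21 of 22 were peak-free, and of the secretoglobins (Scgb), which include the androgen-binding proteins of saliva and tears, 28 of 34. Beta-defensins (Defb) had 26 of 42 peak-free genes (61.9%) and 16 with a peak. Type I interferons reached 7 of 20. C-type lectins (Clec) had 4 of 30 with 6 undecided, a share of 13.3% that is near the 12.7% of all genes.

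Among the skin families, 13 of 15 small proline-rich genes (Sprr), 15 of 21 late cornified envelope genes (Lce) and 40 of 57 keratin-associated genes of hair (Krtap) were peak-free, against 21 of 53 keratin genes (Krt). Of 83 genes in placental and reproductive families 57 were peak-free (68.7%): 20 of 25 genes of the prolactin family (Prl) with 3 undecided, 10 of 13 pregnancy-specific glycoprotein genes (Psg), 11 of 15 PRAME-like genes, 4 of 5 casein genes (Csn), 8 of 15 Ceacam genes and 4 of 10 Speer genes with 3 undecided. Kallikreins (Klk), serine proteases of glands and skin, had 17 of 27 peak-free genes (63%) and no undecided ones. Other proteases and their inhibitors were lower, with 11 of 39 Prss genes, 9 of 23 Serpina genes and 12 of 26 Serpinb genes. Enzymes of liver metabolism were mixed: 14 of 21 sulfotransferases (Sult), 9 of 22 UDP-glucuronosyltransferases (Ugt) and 28 of 100 cytochromes P450 (Cyp) were peak-free, and 19 further Cyp genes were undecided.

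**Figure D1:**
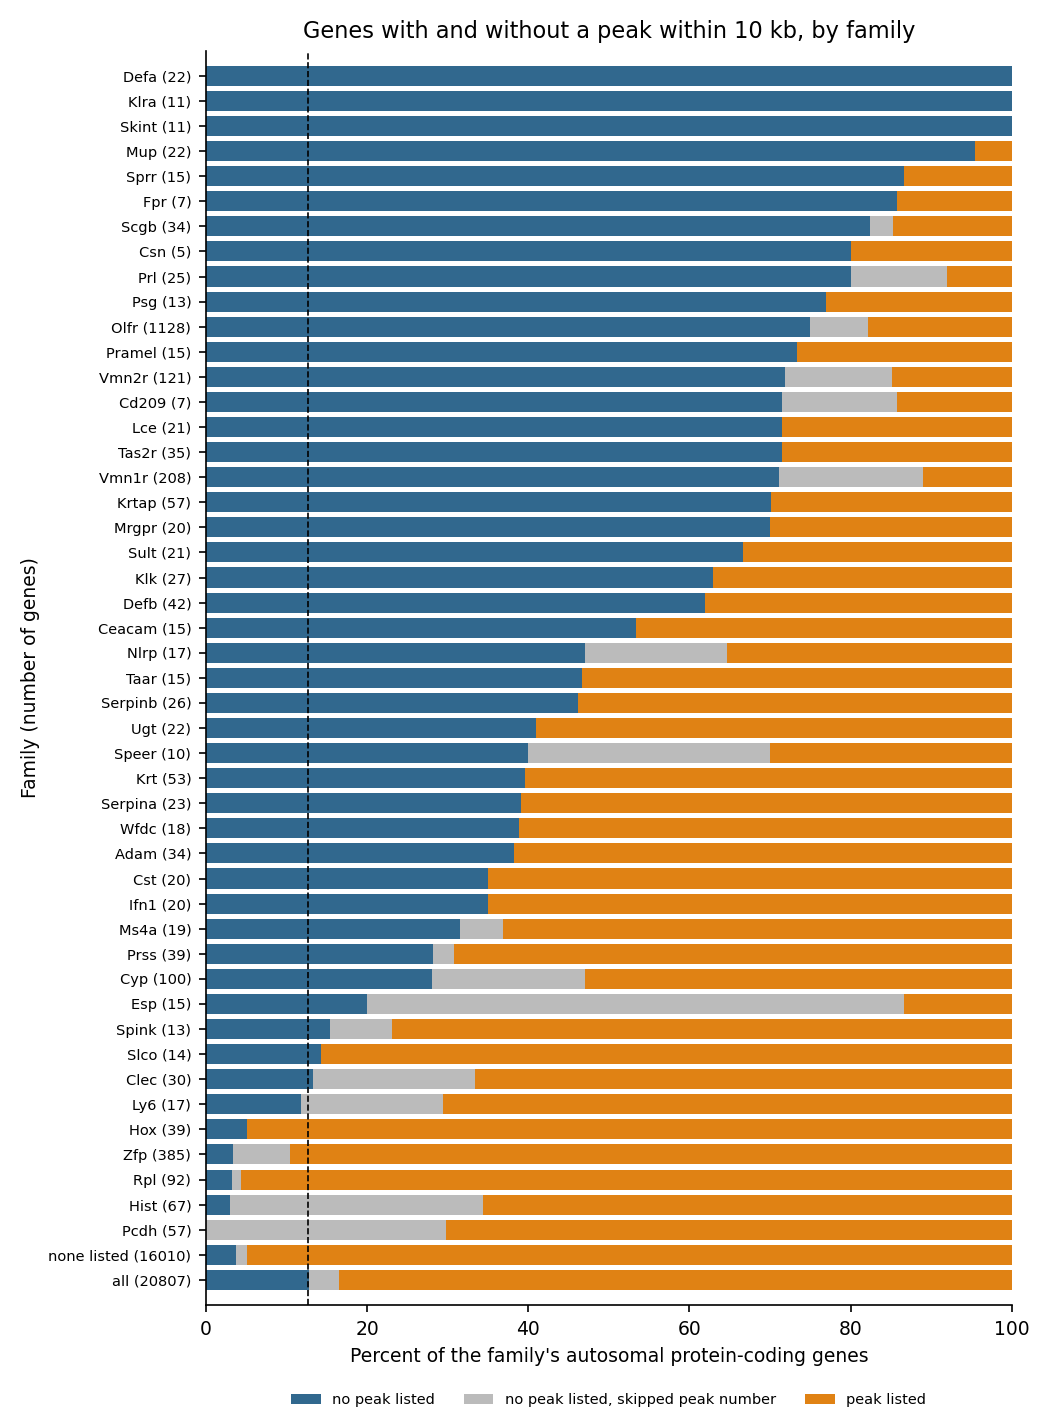
Percent of the autosomal protein-coding genes of each family (y axis, number of genes in parentheses) that were peak-free (blue), undecided because a peak number was skipped in the window (grey) or had a listed peak (orange), with the dashed line at the 12.7% of all genes that were peak-free. Defa, Klra and Skint are blue throughout, Olfr reaches 74.9%, and zinc finger, ribosomal, histone, Hox and protocadherin genes lie at the low end.

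Of the 47 families with 5 or more genes, 41 had a peak-free share above the 12.7% of all genes, and 23 had a share of 50% or more. These families were chosen with earlier results of these data known, so the tally partly follows from that choice. Some clustered families had few peak-free genes. The clustered protocadherins (Pcdh), adhesion proteins of neurons, had 0 of 57 peak-free genes with 17 undecided. Many of the 40 with a peak have overlapping bodies and share peaks, and each of the 40 had a gene outside the family, predicted genes included, in its window. The Hox genes, which pattern the body axis, had 2 of 39 and the replication-dependent histones 2 of 67 with 21 undecided. Zinc finger genes (Zfp) had 13 of 385 with 27 undecided, and ribosomal protein genes 3 of 92. Genes with only a predicted name (Gm numbers or RIKEN names) contributed 468 peak-free genes, and 597 belonged to no listed family, which is 3.73% of the 16010 such genes.

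The peak-free genes differed widely in how far they lay from open chromatin. The median distance from the gene body to the nearest peak of either list was 51.6 kb, with quartiles at 22.9 and 132 kb. More than 100 kb separated 829 genes (31.3%) from a peak, and 451 genes were more than 200 kb away, of which 46.6% were Olfr, Vmn1r or Vmn2r genes. No skipped number lay between any peak-free gene and its nearest listed peak, which follows from how these genes were set apart. By family, the median was 60.2 kb for Olfr, 184 kb for Vmn1r, 194 kb for Vmn2r and 780 kb for Scgb. It was 301 kb for Skint, 300 kb for Klra, 176 kb for Defa and 119 kb for Mup, but 44.7 kb for Defb, 46.5 kb for Klk, 30.7 kb for Krtap and 26.0 kb for genes in no listed family. In Scgb, Skint, Klra, Defa and Mup all peak-free genes of the family lay in the same series of neighbouring peak-free genes. Their medians therefore depend on few stretches between peaks, and the genes are not separate observations.

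**Figure D2:**
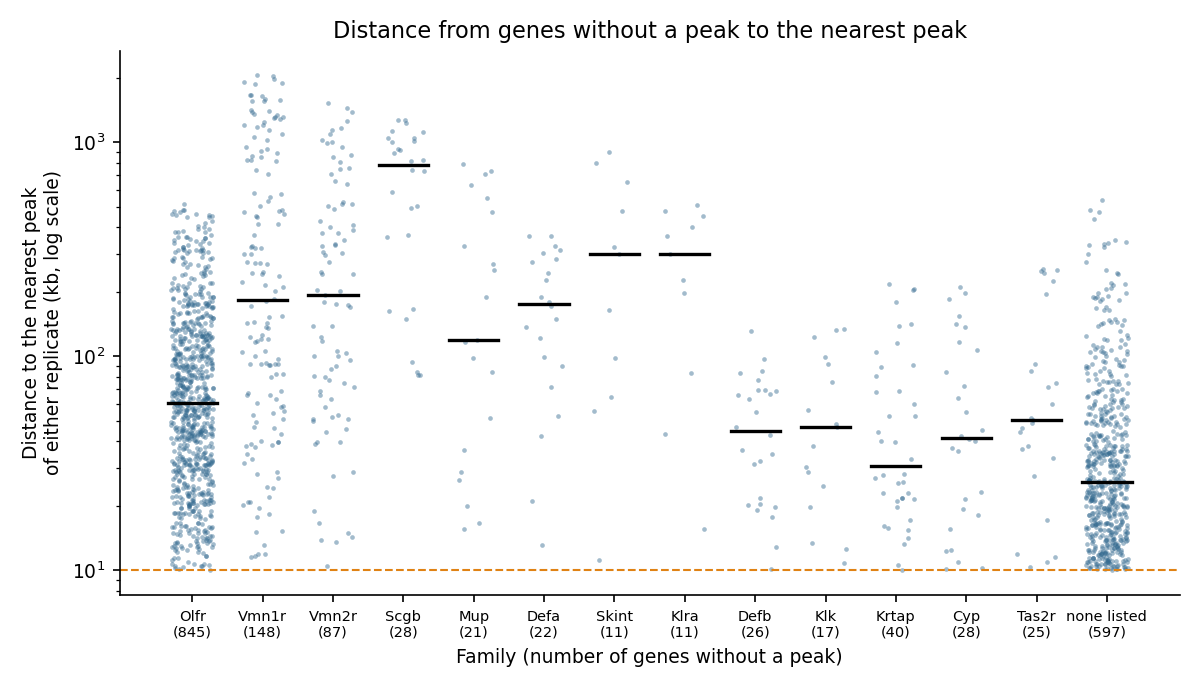
Distance from each peak-free gene body to the nearest peak of either replicate (y axis, kb, log scale) by family (x axis, number of peak-free genes in parentheses), with each point a gene, black bars the medians and the dashed line the 10 kb limit. Vmn1r and Vmn2r reach 2052 and 1532 kb, whereas genes in no listed family have a median of 26.0 kb.

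The farthest gene of all was Vmn1r138, at 2052 kb from a peak in both replicates. Vmn2r40 lay 1532 kb away and the secretoglobin gene Scgb2b15 1294 kb in replicate 1 and 1278 kb in replicate 2. Reads can hardly be placed at these starts: the share of 50-base words within 1 kb that occur once in the genome was 0 for Vmn1r138 and Scgb2b15 and 2.56% for Vmn2r40, and its part in these distances was not tested. In the other families with the most peak-free genes, and in Skint and Klk, the farthest genes were Skint6 at 896 kb, Olfr393 at 517 kb, the bitter taste receptor gene Tas2r114 at 255 kb, the hair gene Krtap20-2 at 219 kb and Cyp3a25, a drug-metabolizing cytochrome, at 211 kb. They were followed by Klk1b21 at 134 kb and Defb3 at 131 kb. Some families with fewer peak-free genes reached farther than Olfr, such as Mup with 790 kb. Of the 10 genes named by distance, Scgb2b15 alone had distances in the replicates that differed by more than 1 kb.

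Outside the listed families the 10 farthest genes included several with a near copy on the same chromosome. Fam205a3 (536 kb in the nearer replicate) and Fam205a2 (349 kb) lie in the same run of peak-free genes on chromosome 4 as Ccl21b (474 kb), a chemokine that guides lymphocytes. Obox2 (483 kb) and Obox1 (325 kb) encode homeodomain proteins of the oocyte, and Prb1 (439 kb) and Prpmp5 (335 kb) encode proline-rich proteins of saliva. The others were BB287469 (344 kb), BC061237 (337 kb) and Igfl3 (330 kb). The sequence around 6 of these 10 gene starts was not, or barely, unique: the same share was 0 for Fam205a3, Fam205a2, Ccl21b, Obox2 and Obox1 and 16% for BB287469. Reads cannot be placed there with confidence, and the part this played in the lack of peaks was not tested. Of the others, BC061237 had a share of 31.6% and Prb1 of 54.3%, against 84.4% for Prpmp5 and 98.9% for Igfl3.

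Genes near the limit show how the choice of 10 kb divides a continuous range. Just inside lay Olfr878 at 10010 bp from the nearest peak, Kctd4 at 10026 bp, Krtap3-3 at 10057 bp, Gm17783 at 10080 bp and Gm15557 at 10114 bp. Just outside lay Olfr720 at 9999 bp, Hoxb6 at 9994 bp, Tmem156 at 9990 bp, and Gm39115 and Olfr1375 at 9980 bp each. Between 10 and 12.5 kb from a peak lay 161 peak-free genes, and 221 genes with a peak lay between 7.5 and 10 kb from it.

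Most peak-free genes were neighbours of each other. In 145 runs of 5 or more consecutive protein-coding genes all members were peak-free, and these runs held 1710 genes, 64.6% of the 2649. They covered 70.3 Mb on 18 of the 19 autosomes. Olfr genes were the most frequent members in 63 runs, and Olfr, Vmn1r or Vmn2r in 76. In the largest run, chr7:19991465-24063554, 104 genes over 4072 kb had no peak: 65 Vmn1r genes, 35 predicted genes, 3 Nlrp genes and 1 other.

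Of the 9 next largest runs, 4 were made mainly of olfactory receptors, at chr2:88123360-89018340 (42 genes, 40 of them Olfr), chr19:12883855-13798202 (35 genes, all Olfr), chr11:73350783-74352650 (31 genes, 29 Olfr) and chr7:107812263-108467585 (27 genes, all Olfr). The run at chr8:21025545-21906412 joined 22 Defa and 6 Defb genes among 34 genes. At chr11:99590461-99979053, 33 genes included 16 Krtap genes and 17 predicted genes. The run at chr7:31290508-34022881 consisted of 28 Scgb genes. Finally, chr2:175010241-177087347 held 25 predicted genes and 6 Zfp genes among 31, and chr4:143437164-144377933 held 14 predicted and 9 PRAME-like genes among 25.

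The longest stretches between neighbouring peaks of the pooled lists enclosed several of these runs. Where no number was skipped the median stretch was 6.24 kb long, while 26 stretches measured 1 Mb or more. The longest, chr7:19956800-24081288 (4124 kb), held the Vmn1r run, and chr7:7374874-10480788 (3106 kb) held 22 Vmn2r and 2 Vmn1r genes. The next were chr7:31208930-34107567 (2899 kb) with 29 Scgb genes and chr17:17910802-20561901 (2651 kb) with 19 Vmn2r, 3 Fpr and 2 Vmn1r genes. The last of these 5, chr4:111908263-114300497 (2392 kb), held all 11 Skint genes. Unknown bases of the assembly accounted for 50 kb of each of the first and the second. Not every long stretch held genes: of the 100 longest, 57 contained no protein-coding gene and 13 were led by Olfr, Vmn1r or Vmn2r genes.

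The peaks that bordered the runs were ordinary members of their lists. The nearest peak on each side of each run reached 5.43-fold enrichment at the median in replicate 1, where all autosomal peaks had 5.70, and 5.03-fold in replicate 2, the same as all autosomal peaks there. The highest reached 63.6 in replicate 1. The other list held an overlapping peak for 80.6% of the bordering peaks of replicate 1 and for 77.9% of those of replicate 2. Within 1 kb of a protein-coding gene start lay 21.9% of the bordering peaks and 18.4% of all autosomal peaks. For example, the Vmn1r run on chromosome 7 ended at a peak of 36.1 and 39.7 fold enrichment over a gene start on its upper side, 17.8 and 17.7 kb beyond the last gene, and at a peak of 5.43 and 8.04 fold enrichment 34.7 kb before its first gene.

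Peak-free genes were spread unevenly over chromosomes. Chromosome 7 had 507 of 2023 genes peak-free (25.1%), 304 of them Olfr, Vmn1r or Vmn2r, and chromosome 2 had 343 of 1843 (18.6%), with 232 such genes. Chromosome 18 had 16 of 513 (3.12%), none of them in these families. With the 3 receptor families left out, the share still ran from 2.91% on chromosome 19 to 12.5% on chromosomes 4 and 7.

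Olfr genes on 16 chromosomes were peak-free, and the share differed between their clusters. A cluster is here a series of Olfr genes with under 500 kb between neighbours. In the largest, 227 genes on chromosome 2, 169 were peak-free (74.4%), and in the second, 129 genes on chromosome 7 from Olfr543 to Olfr692, 81 were (62.8%). Among clusters of 10 or more genes the share was highest, at 96.7%, in the cluster of 30 genes on chromosome 11 from Olfr20 to Olfr412, followed by 95.2% in the 42 genes on chromosome 7 from Olfr467 to Olfr519. The lowest was 16.2% in 37 genes on chromosome 9 from Olfr24 to Olfr18, where 28 genes were undecided and only 3 had a peak.

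The distance from Olfr genes to genes of other kinds was set beside their peaks, as a description with no test. Windows of the nearest Olfr genes can reach peaks of the neighbouring gene itself. Within 25 kb of a protein-coding gene outside the Olfr family and with a proper name, 69 of 132 Olfr genes (52.3%) were peak-free and 59 had a peak. The share was 74.5% of 110 genes at 25 to 50 kb, 76.4% of 174 genes at 50 to 100 kb, 80.5% of 210 genes at 100 to 200 kb and 78.1% of 502 genes farther away. Of the 201 Olfr genes with a peak, 141 had it in the flanks only and 60 in the gene body, and 133 had no more than 2 peaks, counted over both lists.

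The beta-globin genes give a clear example, chosen after its values were seen. They lie inside the second largest Olfr cluster and encode the beta chains of haemoglobin in red blood cells, which circulate through the heart. All 5 Hbb genes had a peak in the gene body. At the embryonic gene Hbb-y the window held 11 peaks in replicate 1 and 12 in replicate 2, with fold enrichments of up to 29.9 and 34.4. On the lower side, Olfr67 had a peak 1.06 kb from its body, whereas the next genes outwards, Olfr68 and Olfr69, were peak-free at 13.2 and 21.3 kb, and the distance grew to 150 kb at Olfr622. On the upper side Olfr66, Olfr64, Olfr65, Olfr632 and Olfr633 had a peak within 10 kb, and Olfr631, which lies between Olfr65 and Olfr632, was peak-free at 12.5 kb. Beyond Olfr633 the genes from Olfr635 to Olfr643 were peak-free, at 28.0 to 103 kb.

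**Figure D3:**
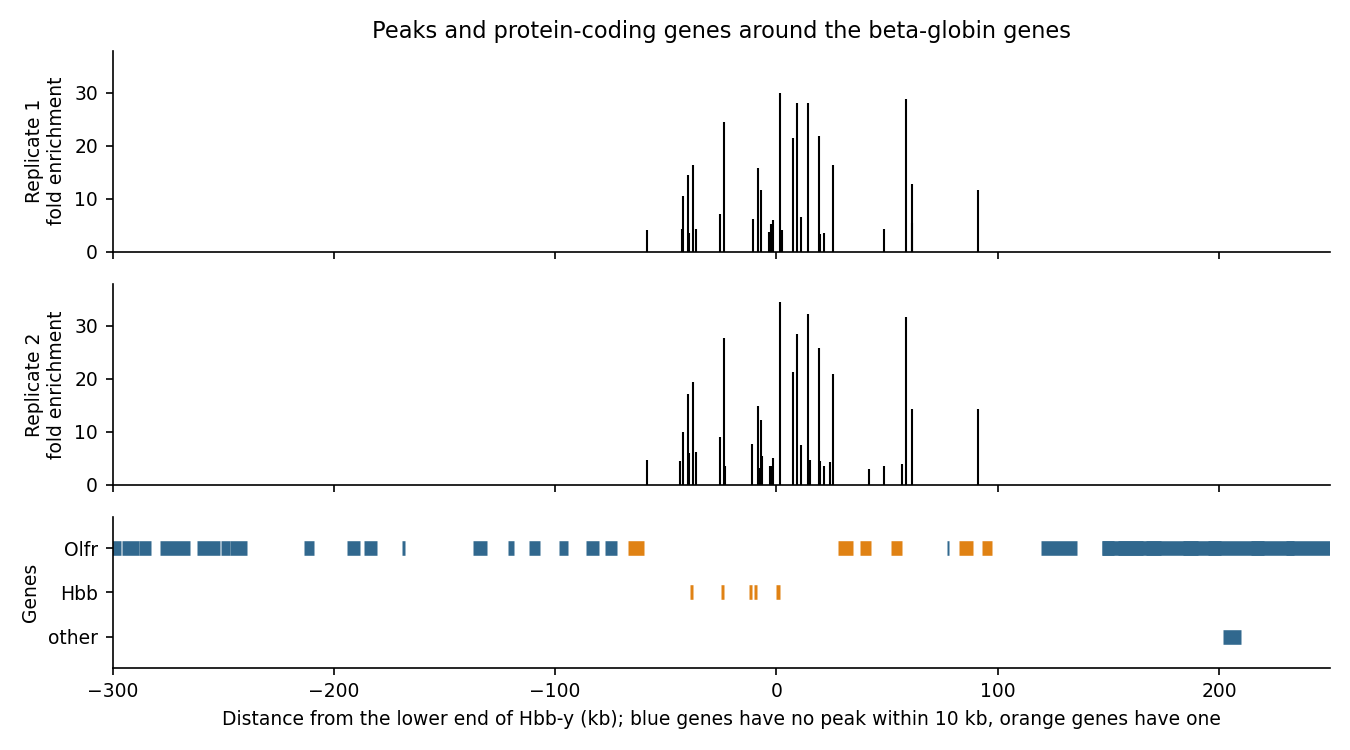
Peaks of replicate 1 (top) and replicate 2 (middle) as vertical lines at their summits (y axis, fold enrichment) and protein-coding genes (bottom; peak-free blue, with a peak orange) against distance from the lower end of Hbb-y (x axis, kb). Peaks of both replicates crowd between the Hbb genes and reach 29.9 and 34.4, and the Olfr genes on both sides turn from orange to blue with distance, apart from Olfr631, which is blue between orange genes.

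A peak of both replicates within 1 kb of the gene start was found at 11 of 1128 Olfr genes, against 64.7% of all genes. The highest mean fold enrichments were at Olfr575 (19 and 22.1 in replicates 1 and 2), Olfr875 (16 and 12.6) and Olfr571 (10.9 and 7.79), followed by Olfr658 (6.79 and 5.78) and Olfr1389 (6.52 and 5.53). Olfr575, Olfr571 and Olfr658 lie in the cluster that surrounds the beta-globin genes. Among the Vmn1r genes, Vmn1r4 had 41.6 and 42.0, but the same kilobase holds the start of Nt5c3, a nucleotidase gene, and Vmn1r226 had 8.15 and 6.79. No Vmn2r or Skint gene met this condition. Defb30 met it with 4.35 and 4.02, though the body of Defb42 spans its start, as did Klk8 with 7.33 and 6.29, within 1 kb of the end of Klk9, and Klk13 with 4.35 and 3.77.

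Beyond the families listed so far, smaller families were counted after the peak-free genes had been seen, with all autosomal members as the denominator. All 7 Obox genes, all 7 seminal vesicle secretory genes (Svs), all 6 Reg genes of pancreas and gut, all 6 amylase genes (Amy) and all 5 Tdpoz genes were peak-free. Reads can hardly be placed at amylase starts, where the median share of unique 50-base words was 0, and in Tdpoz it was 51.9%. Granzymes and mast cell proteases, the cytotoxic and inflammatory enzymes stored in granules, had 11 of 15 peak-free genes. Placental cathepsins had 7 of 9, lipocalins (Lcn) 7 of 10 with 1 undecided, H2-M histocompatibility genes 8 of 12, CC chemokines (Ccl) 12 of 23, carboxylesterases (Ces) 9 of 19, and oligoadenylate synthetases (Oas), sensors of viral RNA, 6 of 11. Of 68 Trim genes 7 were peak-free (10.3%), near the 12.7% of all genes.

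Lists of secreted proteins of other organs, drawn up in the same way after the values were seen, were divided. Of 50 peptide hormone genes 18 were peak-free, among them Gnrh1, the gonadotropin-releasing hormone, at 27.6 kb from a peak in both replicates, Ins1, one of the mouse insulin genes, at 59.8 kb, and Tshb, the beta chain of thyrotropin, at 11.1 kb. The other insulin gene Ins2 and 31 further hormone genes had a peak. The annotated body of Ins2 spans 64.7 kb against 1.18 kb for Ins1, so its window is wider. Of 28 liver plasma protein genes 14 were peak-free, including Afp (alpha-fetoprotein, 35 kb), F2 (prothrombin, 12.7 kb) and Fga (a fibrinogen chain, 20.1 kb), while Alb (albumin), which neighbours Afp, had a single peak in each list, of 4.89 and 4.27 fold enrichment. The peak near Alb was also the nearest to Afp. Of 26 pancreatic enzyme genes 13 were peak-free, and of 36 genes of sperm and egg proteins 18. Of 28 cytokine genes 3 were peak-free, a share near the 12.7% of all genes: Il3 (35.9 kb) and Csf2 (32.3 kb), which are neighbours on chromosome 11, and Il5 (10.4 kb).

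Sarcomeric myosin heavy chain genes were also listed after the values were seen. Of 10 such genes 4 were peak-free, where 12.7% of all genes were: Myh1, Myh2, Myh4 and Myh8. These serve skeletal muscle and lie next to each other on chromosome 11. Their distances in replicates 1 and 2 were 57.7 and 86.9 kb for Myh1, 28.6 and 57.9 kb for Myh2, 90.0 and 89.9 kb for Myh4, and 41.8 and 41.7 kb for Myh8. The 6 with a peak were the cardiac genes Myh6 and Myh7, the skeletal muscle genes Myh3 and Myh13, and Myh7b and Myh15, so skeletal muscle genes stood on both sides. The window of Myh6 held 19 and 12 peaks in replicates 1 and 2, and that of Myh7 held 19 and 13.

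Regulators of other lineages were also listed after the values were seen. Of 29 such genes 7 were peak-free, where 12.7% of all genes were. They were T, Neurog1, Neurog3, Neurod2, Foxb1 and Foxn4 of the neural tube and retina, and Ferd3l. Foxb1 was the farthest from a peak (130 kb in replicate 1 and 90.2 kb in replicate 2), and Neurod2 the nearest (12.9 kb in both). The 22 with a peak included Neurog2, Sox2, Pax6, Myod1, Ptf1a and Hnf4a, so regulators on this list stood on both sides.

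Promoter composition, which the rule did not use, differed strongly between the groups. The ratio of observed to expected CpG in the 300 bp around the gene start had a median of 0.114 in peak-free genes (quartiles 0.0538 and 0.211) and 0.638 in genes with a peak (quartiles 0.320 and 0.844). With the 3 receptor families left out the medians were 0.132 and 0.645, and in genes of no listed family 0.159 and 0.665. No CpG at all was present in the promoters of 619 peak-free genes (23.4%) and of 352 genes with a peak (2.02%). The share of peak-free genes was 39.2% among genes with a ratio under 0.2, 15.9% from 0.2 to 0.4, 3.81% from 0.4 to 0.6, 0.919% from 0.6 to 0.8 and 0.129% at 0.8 and over. Genes share ancestry within families and are not independent, so these are descriptions across genes.

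**Figure D4:**
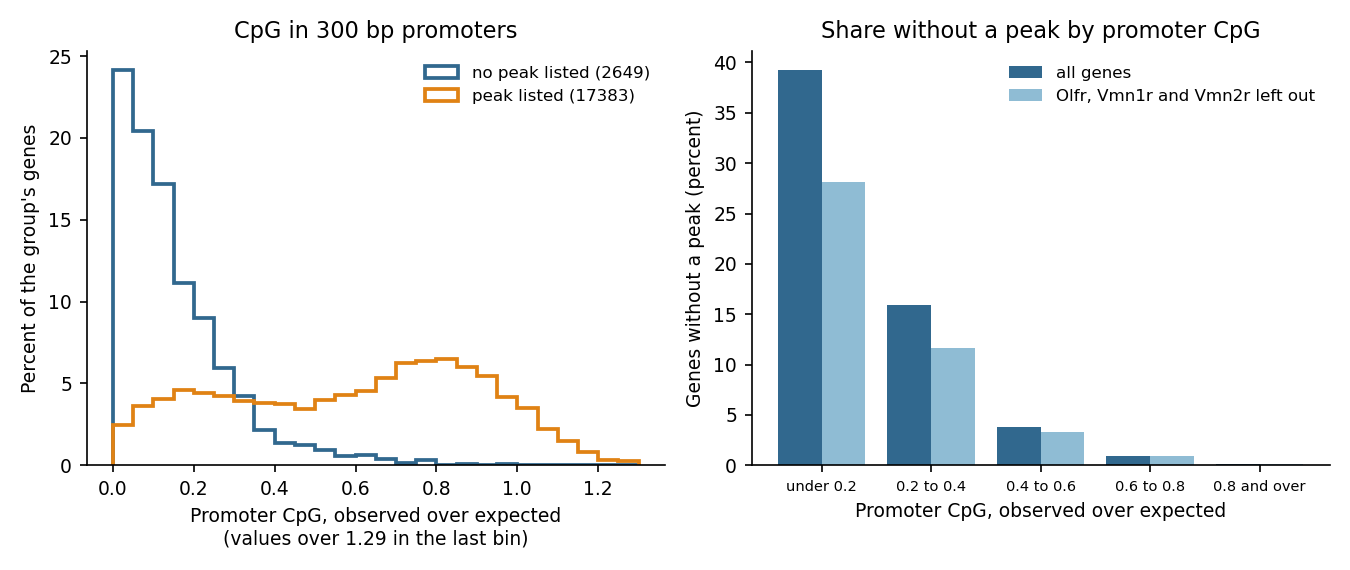
Left, percent of genes (y axis) by ratio of observed to expected CpG in the 300 bp promoter (x axis) for the 2649 peak-free genes (blue) and the 17383 genes with a peak (orange). Right, percent of genes that were peak-free (y axis) in 5 classes of that ratio (x axis), for all genes (dark) and without Olfr, Vmn1r and Vmn2r genes (light), falling from 39.2% and 28.1% to 0.129%.

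Within families the medians of the ratio stood in either order. They were 0.0885 in peak-free Olfr genes and 0.0852 in Olfr genes with a peak, 0.101 and 0.0671 in Vmn1r genes, and 0.0919 and 0.0275 in Vmn2r genes. Only 23 Vmn1r and 18 Vmn2r genes had a peak. The median count of CpG was 1 in both Olfr and both Vmn1r groups, and 1 and 0.5 in Vmn2r, so these ratios rest on very few CpG. Within 1 kb of the start the order turned in Olfr (0.107 and 0.114). It stayed in Vmn1r (0.104 and 0.0881) and Vmn2r (0.123 and 0.114). In the 300 bp promoters of Defb genes the median ratio was 0.0821 and 0.285, and in those of Klk genes 0.0861 and 0.123. Among peak-free genes, 44 (1.66%) had a ratio of 0.6 or more, against 9276 (53.4%) of the genes with a peak. Of these 44, 34 had a proper name, and they included Neurog1 (0.876), Foxb1 (0.632), Foxn4 (0.638), Neurod2 (0.653), Hoxb13 (0.697), T (0.607) and Nptx1 (1.08), a secreted protein of neurons.

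How well short reads can be placed differed between families as well. Within 1 kb of the gene start the median share of 50-base words that occur once in the genome was 95.3% in peak-free genes and 100% in genes with a peak. Under 50% was unique in 424 peak-free genes (16%) and in 105 genes with a peak (0.604%). Medians were low in peak-free Zfp (1.38%), Defa (12%), Mup (14.7%) and Scgb (44.9%) genes, whereas they were high in Olfr (98.5%), Skint (98.0%) and Tas2r (100%). Among genes with at least 80% unique words, 760 of 1026 Olfr genes were peak-free (74.1%), 73 of 126 Vmn1r genes (57.9%), 52 of 75 Vmn2r genes (69.3%), 24 of 39 Defb genes (61.5%), 10 of 10 Skint genes and 14 of 24 Klk genes (58.3%), against 9.92% of all such genes. Mup kept 5 such genes, 4 of them peak-free, and Scgb 15, of which 10 were. The median of Defa lay far below 80%, so most Defa genes are left out of this comparison. Of the 324 Zfp genes with unique starts 3 were peak-free.

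Base composition around the genes also differed. Over 20 kb around the start, repeats covered a median of 38.6% in peak-free genes and 26.0% in genes with a peak, and G and C made up 39.8% and 45.7%. Peak-free gene bodies were shorter, with a median of 5.82 kb against 22.0 kb. A longer body gives a wider window in which a peak can fall, and its part in the choice of genes was not tested.

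Short motifs in the 300 bp promoters, searched on both strands, also differed in frequency, and base composition differed beside them: G and C made up a median of 42% of peak-free promoters and 57.3% of those with a peak. The part of base composition in the motif shares was not tested. TATAAA, the core of the TATA box, occurred in 31% of peak-free genes, 9.69% of genes with a peak and 12.7% of all genes. Within families its order varied: 34.1% of peak-free Olfr genes and 32.3% of those with a peak, 35.1% and 26.1% in Vmn1r, and 23.1% and 18.8% in Defb. In Vmn2r it was 19.5% and 50%, and in Klk 5.88% and 10%. TAATTA, the core recognised by many homeodomain proteins, occurred in 14.1% of peak-free genes, 3.61% of genes with a peak and 5.21% of all genes. In Olfr genes it occurred in 24.3% of the peak-free ones and 22.9% of those with a peak. GATAAG, which erythroid and cardiac GATA factors recognise, occurred in 13.4%, 5.87% and 6.87%, with a high share of 36.5% in the 148 peak-free Vmn1r genes, many of which are copies of each other, against 1 of 23 Vmn1r genes with a peak. In Vmn2r genes the order was the opposite but rested on few genes, with 2 of 87 peak-free genes (2.3%) and 3 of 18 with a peak (16.7%). The palindromic Ebf consensus, bound by factors of olfactory neurons, occurred in 1.06% of peak-free genes and in 1.02% of all genes, but in 2.25% of peak-free Olfr genes and 2.99% of those with a peak. CGCG, which cannot occur without CpG, was found in 2.72% of peak-free genes and 55% of genes with a peak. Motifs were counted separately and may overlap by some letters, and a match describes letters in this window only.

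The replicates gave similar sets. On replicate 1 alone 2875 genes were peak-free, on replicate 2 alone 2899, and 2649 were so on both. In 175 genes a peak was listed only in replicate 2 and in 213 only in replicate 1, most often a single peak (160 and 192 genes). The median of their highest peaks was 3.77-fold for those seen in replicate 2 and 4.07-fold for those seen in replicate 1, below the medians of 5.03 and 5.70 over the whole lists. Beta-defensins depended most on the replicate among the 6 leading families, with 27 peak-free genes on replicate 1 alone, 34 on replicate 2 alone and 26 on both. Skint kept 11 and Klk 17 on each.

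With the gene body alone, 982 Olfr genes (87.1%) and 39 Defb genes (92.9%) had no peak and no skipped number. With 50 kb on each side the shares were 43.3% of Olfr, 55.3% of Vmn1r, 60.3% of Vmn2r, 28.6% of Defb, 25.9% of Klk and 90.9% of Skint genes, against 6.49% of all genes.

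**Figure D5:**
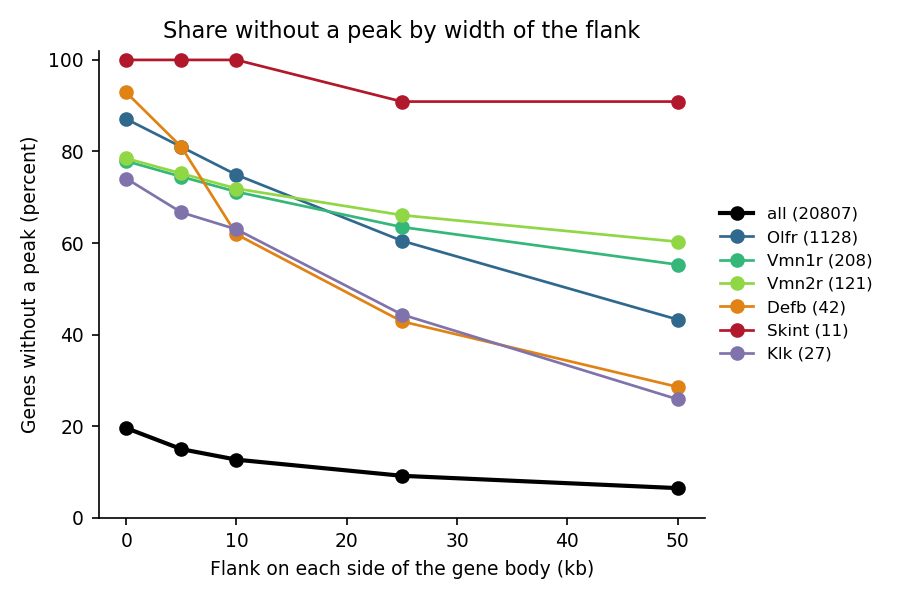
Percent of genes that were peak-free (y axis) against the flank added on each side of the gene body (x axis, kb) for all autosomal protein-coding genes (black) and the 6 leading families (colours, number of genes in the key). The share falls from 19.6% to 6.49% for all genes as the flank widens, Skint stays at 100% up to 10 kb and at 90.9% from 25 kb, and the 6 families stay above the black line at each width.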

How the data were processed

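ATAC-seq was performed on 2 replicates of wildtype FVB hearts at E11.5. According to the submitters' processing notes and the methods of the study, the authors trimmed 50 bp single-end reads with Trim Galore 0.6.6, aligned them to GRCm38/mm10 with Bowtie2 2.4.2, removed duplicates and poorly placed reads with SAMtools 1.12 and called peaks with MACS2 for each replicate separately. The deposited peak lists give a score and a fold enrichment over the background for each peak, and its p-value and q-value on a −log10 scale. The largest p-value listed was 0.000476 in replicate 1 and 0.00104 in replicate 2. Read depth is unknown from these files, so a weakly open site could be missed. Filtering on mapping quality removes reads that fit several places, and its effect on near-identical gene copies was not tested.

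Peaks were compared with autosomal protein-coding genes of GENCODE M21, with an overlap of 1 bp, in Python 3.11.15 with NumPy 2.4.6 and pandas 2.3.3. Distances were measured from the gene body to the nearest peak edge. Intervals where peak numbers were skipped were set aside after the data had been seen, and the peaks of those numbers were not analysed here. Sequence features came from GRCm38. Overlaps, distances, skipped numbers and unique 50-mers were tested on simulated data. The members, families and lists were chosen with earlier results of these data known, and lists and families added after their values were seen are named as such. Named genes were the farthest of the 8 families with the most peak-free genes and of Skint and Klk, up to 5 per leading family with a peak of both replicates within 1 kb of the start, the 10 farthest outside families and 5 on each side of the limit, with the 10 largest runs and 5 longest stretches. A single group allowed no test between conditions. Alternatives changed the replicates, peak thresholds, overlap, flanks, gene set and sequence windows. A gene of the list of lineage regulators is not reported here.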

Additional observations from a re-analysis of the deposited data

How the results depend on the processing

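The count of 2649 peak-free genes was 4074 without flanks and 1351 with 50 kb on each side. With 50 kb the 6 leading families fell from 1134 to 705 peak-free genes and the runs from 145 to 82. With 10 kb, 64 of the 145 runs had 10 or more genes. The longest stretch measured 4124.49 and 4124.53 kb on single replicates and 4074 kb without assembly gaps. The median CpG ratio of 0.114 was 0.115 to 0.118 on single replicates, 0.132 without the 3 receptor families, 0.120 with skipped numbers counted as no peak (an alternative chosen after seeing the data) and 0.127 within 1 kb of the start. The median share of unique 50-mers of 95.3% was 95.9% to 96.0% on single replicates, 92.4% without the receptor families and 93.3% with skipped numbers counted as no peak. The cause of these shifts was not tested, other than that wider flanks can only remove genes. The remaining counts of peak-free genes stayed within 1.5 times the value given: 2714 with peaks of a p-value of at most 0.00001, 3666 with a q-value of at most 1e-10, 3076 and 3207 with peaks shared by the replicates by 1 bp or by 50% of both, 2324 for genes with a CCDS transcript and 1907 for genes with 80% unique 50-mers. No paired analysis was possible because a single group was profiled and no result comes from a test.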
